A study of Gallus gallus with 12 samples.

Results

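Macrophages answer bacterial lipopolysaccharide (LPS) by releasing cytokines and growth factors. Described here are 10 genes grouped under this heading, outside the interleukin-1, tumour necrosis factor ligand and chemokine families. They are IL6, IL10, IL12A, IL12B, IL15, IL16, IL34, CSF1, CSF3 and LITAF. LITAF encodes a membrane protein but is counted with the cytokine genes throughout. The 10 genes were taken from the deposited count table by their gene symbols, and the list was chosen with earlier results of these data known. Of the 10 genes, 7 were among the 16161 genes of the table. The other 3, IL6, IL12A and IL34, were not analysed here.

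RNA-seq was performed on HD11, a chicken macrophage-like cell line obtained by transformation of haematopoietic cells with an avian myelocytomatosis virus, so every group is the same line. The LPS group received LPS at 100 ng/mL for 6 h. The SeMC group, named SeMC+PBS in the study, was kept for 12 h before the challenge in medium with Se-methylselenocysteine (SeMC), a selenium-containing amino acid, at 100 µM, and was given PBS in place of LPS. The Control group received PBS only, and each of these groups had 3 libraries.

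LPS is bound by the TLR4 receptor complex of macrophages, which activates NF-κB and other transcription factors and thereby the genes of many cytokines. The factors described here act on different cells. CSF1 keeps macrophages alive and proliferating, CSF3 drives the formation of granulocytes and was first known in chickens as myelomonocytic growth factor, IL10 restrains activated macrophages, and IL12B, IL15 and IL16 address lymphocytes.

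The total count was 13451069 to 14018893 in the LPS libraries, 10656332 to 11531551 in the SeMC libraries and 14972385 to 17024392 in the Control libraries, so the SeMC libraries were the shallowest. The sources do not say whether the libraries of a group came from separate cultures, and p-values therefore measure only the spread between these libraries, which may be technical. Levels are given as CPM, the counts per 1000000 counts of a library whose size was adjusted by TMM. Of the 12 macrophage markers listed, 11 were in the table, and all 11 were at 1 CPM or more in all 9 libraries. Their summed level was 4540 to 4860 CPM in LPS, 2600 to 2890 CPM in SeMC and 2960 to 3040 CPM in Control libraries. LYZ alone averaged 2070 CPM in LPS and 263 CPM in Control libraries, and the other 10 markers summed to 2590 to 2680 CPM in LPS, 2350 to 2650 CPM in SeMC and 2690 to 2760 CPM in Control libraries. In LPS/CTR 3 macrophage markers were called higher and 4 lower, among them MPEG1 with means of 213 CPM in LPS and 592 CPM in Control libraries. The shares over all genes tested in LPS/CTR were 6.13% higher and 5.92% lower. Of 8 T cell markers, 5 were in the table and 2 reached 1 CPM in all 9 libraries, with sums of 52.2 to 57.5, 54.1 to 59.2 and 56.0 to 62.6 CPM in LPS, SeMC and Control libraries, nearly all of it CD28, while CD3D averaged 0.627, 0.723 and 0.532 CPM. Of 6 B cell markers, 4 were in the table and 1 reached 1 CPM throughout, with sums of 6.57 to 8.88, 4.33 to 5.07 and 2.56 to 4.31 CPM, most of it CD72. The heterophil markers CSF3R and RSFR, 2 of 6 listed, summed to 1400 to 1500 CPM in LPS, 2320 to 2390 CPM in SeMC and 2310 to 2470 CPM in Control libraries. Thrombocyte and erythroid markers (3 of 6 in the table, 1 reaching 1 CPM throughout) summed to 11.3 to 11.8, 22.7 to 30.4 and 22.2 to 24.1 CPM, and fibroblast and endothelial markers (4 of 7, 3 reaching 1 CPM) to 79.2 to 102, 211 to 217 and 200 to 219 CPM, in LPS, SeMC and Control libraries. RSFR averaged 379, 966 and 1050 CPM and CSF3R 1055, 1396 and 1338 CPM in LPS, SeMC and Control libraries. In the same order PECAM1 averaged 71.4, 187 and 186 CPM, most of the fibroblast and endothelial sum. COL1A1 averaged 11.7, 15.0 and 9.14 CPM, PDGFRB 2.27, 10.6 and 9.83 CPM and KDR 2.06, 0.963 and 2.37 CPM. No marker in the table was at 0 in all 9 libraries. The sums of LPS libraries lay apart from those of Control libraries for all lists but that of T cells, and the sums of SeMC libraries for the macrophage and B cell lists. Among the B cell markers, SeMC means were above Control means for JCHAIN (1.27 and 0.0825 CPM) and EBF1 (0.671 and 0.483 CPM). They were below Control means for CD72 (2.69 and 2.94 CPM) and PAX5 (0 and 0.085 CPM). The part of the shifts of all these sums in the cytokine values was not tested. In bulk RNA, fewer cells making a transcript and less transcript per cell cannot be told apart.

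In LPS cells, CSF3, IL16, LITAF, IL10 and CSF1 were higher than in Control cells, and IL12B was 1.44-fold higher, under the fold change required. In SeMC cells IL10 was lower than in Control cells, and no other of the 5 genes tested was called. In LPS cells compared directly with SeMC cells, CSF3, IL10, IL16 and LITAF were higher. A gene was called at a false discovery rate (FDR) under 0.05 and a fold change above 1.5, which is 0.585 on the log2 scale.

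The counts of called genes stand against the share of all genes called. In LPS/CTR, 5 of the 6 genes tested were called, all higher, whereas 12.0% of the 13008 genes tested were called, 6.13% higher and 5.92% lower. CSF3 entered this test only through its LPS counts, and without it 4 of 5 were called, all higher. In SeMC/CTR, 1 of 5 was called, and it was lower, against 14.1% of the 13146 genes tested, 8.5% higher and 5.58% lower. With limma on quantile-normalized values the split of all genes in SeMC/CTR turned from 60.4% higher among the called genes to 41.1%. In LPS/SeMC, 4 of 6 were called, all higher, against 22.9% of 12979 genes, 10.4% higher and 12.5% lower. CSF3 again entered only through its LPS counts, and without it 3 of 5 were called. With limma on quantile-normalized values 54.3% of all called genes in LPS/SeMC were higher, against 45.4% with edgeR. By FDR alone, 6, 2 and 5 of the cytokine genes passed in LPS/CTR, SeMC/CTR and LPS/SeMC, where 34.5%, 39.3% and 54.3% of all genes did, and without CSF3 they were 5 in LPS/CTR and 4 in LPS/SeMC. The median log2 fold change of the genes tested was 0.82, -0.07 and 0.93 in the same order of comparisons, against -0.0015, 0.0010 and -0.0047 over all genes. Leaving out CSF3 gave medians of 0.82 in LPS/CTR and 0.93 in LPS/SeMC. LPS/CTR and SeMC/CTR share the Control libraries, and LPS/CTR and LPS/SeMC share the LPS libraries, so these comparisons are not independent of each other.

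**Figure D1:**
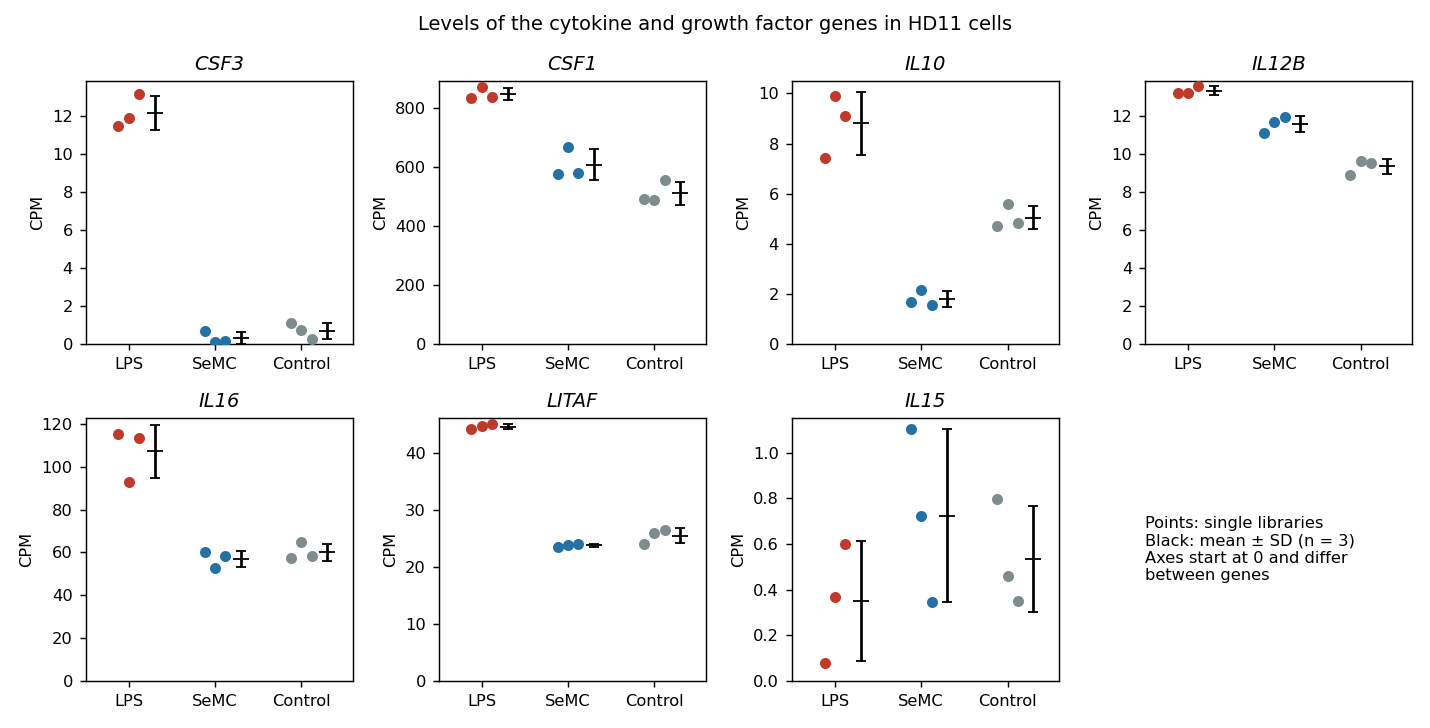
Level of each of the 7 genes in each library, in CPM on linear axes that start at 0 and differ between genes, with LPS left of SeMC and Control. Points are libraries and black bars are the mean ± SD (n = 3 each). CSF3 stood at 11.4 to 13.2 CPM in LPS libraries and at no more than 1.13 CPM in SeMC and Control libraries, and the IL10 values of the 3 groups did not overlap.

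Of the colony-stimulating factors, CSF3 had the largest fold change of all the genes described and CSF1 one of the smaller ones. CSF3 (chromosome 27, 4307579 to 4309480, coordinates of the gene on GRCg7b) encodes granulocyte colony-stimulating factor. It had 148, 161 and 175 counts in LPS libraries, against 8, 1 and 2 counts in SeMC and 17, 11 and 5 counts in Control libraries. This corresponds to 11.4, 11.9 and 13.2 CPM in LPS, 0.679, 0.0906 and 0.173 CPM in SeMC and 1.13, 0.721 and 0.291 CPM in Control libraries. All LPS libraries stood far above the other 6, while SeMC and Control libraries overlapped. CSF3 was 17.4-fold higher in LPS than in Control cells (log2 fold change 4.12, SE 0.276, 95% interval 3.53 to 4.71, adjusted p = 1.77e-08 by edgeR), which ranked 30th from the highest of all genes tested.

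CSF3 was 37.5-fold higher in LPS than in SeMC cells (log2 fold change 5.23, SE 0.334, 95% interval 4.51 to 5.95, adjusted p = 3.33e-08 by edgeR). Its SeMC count rests on few reads, and without SeMC replicate 1, which held 8 of them, the log2 fold change was 6.43. It was 4.82 without SeMC replicate 2 and 4.93 without SeMC replicate 3. CSF3 passed the filter on low counts only through its LPS counts and was not among the genes tested in SeMC/CTR. An exact permutation test of the CPM values in that comparison gave p = 0.2 (two-sided, n = 3 each, smallest possible p 0.1). Without a filter on low counts the log2 fold change in SeMC/CTR was -1.13 with an adjusted p of 0.287 by edgeR. It was -2.33 without SeMC replicate 1 (adjusted p = 0.0595) and -0.70 without SeMC replicate 2 (adjusted p = 0.476). A lower CSF3 level in SeMC than in Control cells was therefore not detectable at this depth.

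CSF1 (chromosome 26, 1323462 to 1330073), macrophage colony-stimulating factor, had 10796, 11831 and 11131 counts in LPS libraries, against 6826, 7385 and 6701 counts in SeMC and 7411, 7440 and 9542 counts in Control libraries. Its level was 835, 873 and 837 CPM in LPS libraries, 579, 669 and 580 CPM in SeMC libraries and 492, 488 and 556 CPM in Control libraries. The 3 groups did not overlap on this scale, with LPS highest and Control lowest. CSF1 was 1.67-fold higher in LPS than in Control cells (log2 fold change 0.74, SE 0.0551, 95% interval 0.63 to 0.86, adjusted p = 5.58e-08 by edgeR). With limma on quantile-normalized values the log2 fold change was 0.57 (adjusted p = 0.0061), under the fold change required, so this call was lost under that setting.

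CSF1 was 1.41-fold higher in LPS than in SeMC cells (log2 fold change 0.50, SE 0.0602, 95% interval 0.37 to 0.63, adjusted p = 1.57e-05 by edgeR), which is under the fold change required. The difference between SeMC and Control cells was smaller, 1.19-fold (log2 fold change 0.25, 95% interval 0.11 to 0.40, adjusted p = 0.0087 by edgeR). Its adjusted p was 0.0535 without Control replicate 1 and 0.1245 with limma on quantile-normalized values.

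IL10 was the only gene of the group called in both comparisons with Control, and in opposite directions. IL10 (chromosome 26, 2598173 to 2600538) encodes the cytokine that limits antigen presentation and inflammatory cytokine release by macrophages. It had 96, 134 and 121 counts in LPS libraries, against 20, 24 and 18 counts in SeMC and 71, 85 and 83 counts in Control libraries. The levels were 7.42, 9.89 and 9.10 CPM in LPS, 1.70, 2.17 and 1.56 CPM in SeMC and 4.71, 5.57 and 4.83 CPM in Control libraries. No library of one group reached the range of another group, with LPS highest and SeMC lowest.

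IL10 was 1.77-fold higher in LPS than in Control cells (log2 fold change 0.82, SE 0.169, 95% interval 0.46 to 1.18, adjusted p = 0.00153 by edgeR). In SeMC cells it was 2.78-fold lower than in Control cells (log2 fold change -1.47, SE 0.254, 95% interval -2.01 to -0.93, adjusted p = 0.000441), which ranked 207th from the lowest of all genes tested. The direct comparison of LPS with SeMC cells, in which Control cancels, is also the test of the difference between both effects. It gave a 4.93-fold higher level in LPS cells (log2 fold change 2.30, SE 0.222, 95% interval 1.82 to 2.78, adjusted p = 1.94e-06 by edgeR).

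**Figure D2:**
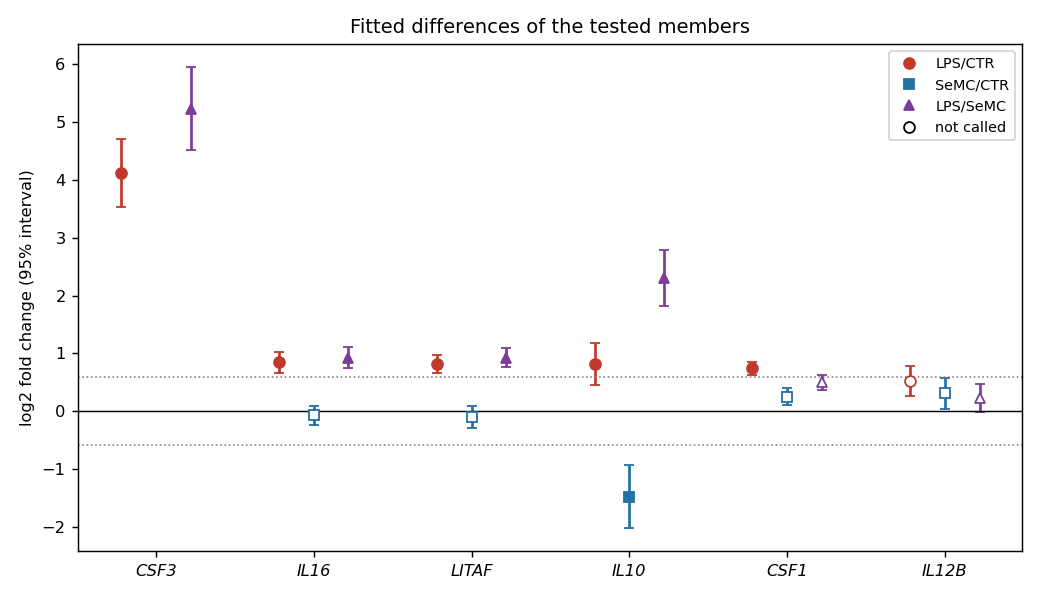
Log2 fold changes of the tested genes in LPS/CTR, SeMC/CTR and LPS/SeMC with 95% intervals; filled symbols were called and dotted lines mark the fold-change minimum at 0.585 on either side of 0. CSF3 lies highest in LPS/CTR (4.12) and LPS/SeMC (5.23), and IL10 is the only called gene below 0, at -1.47 in SeMC/CTR.

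The genes whose products act on lymphocytes, IL16, IL12B and IL15, were not tested against each other. IL16 (chromosome 10, 12119632 to 12160467) encodes a precursor whose released end attracts CD4+ cells in mammals. It had 1492, 1261 and 1507 counts in LPS libraries, against 710, 584 and 672 counts in SeMC and 862, 988 and 999 counts in Control libraries. Its level was 115, 93.0 and 113 CPM in LPS, 60.2, 52.9 and 58.1 CPM in SeMC and 57.2, 64.8 and 58.2 CPM in Control libraries, so the LPS libraries stood above the others and SeMC overlapped Control.

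IL16 was 1.80-fold higher in LPS than in Control cells (log2 fold change 0.85, SE 0.0839, 95% interval 0.67 to 1.03, adjusted p = 1.34e-06 by edgeR) and 1.91-fold higher in LPS than in SeMC cells (log2 fold change 0.93, adjusted p = 1.10e-06). In SeMC/CTR the log2 fold change was -0.07 (95% interval -0.23 to 0.09, adjusted p = 0.490). IL16 overlaps the protein-coding gene LOC415472 in the RefSeq annotation. The level of LOC415472 was low, with means of 3.04 CPM in LPS, 4.22 CPM in SeMC and 3.74 CPM in Control libraries.

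IL12B (chromosome 13, 7703669 to 7779521) encodes the p40 subunit shared by interleukin-12 and interleukin-23. It had 171, 179 and 181 counts in LPS, 131, 129 and 138 counts in SeMC and 134, 147 and 164 counts in Control libraries. In CPM the groups were separate, with 13.2, 13.2 and 13.6 in LPS, 11.1, 11.7 and 11.9 in SeMC and 8.90, 9.64 and 9.55 in Control libraries. The differences were small, with 0.52 on the log2 scale for LPS over Control (SE 0.12, 95% interval 0.27 to 0.78, adjusted p = 0.0032 by edgeR), below the fold change required. In SeMC/CTR it was 0.31 (95% interval 0.04 to 0.58, adjusted p = 0.0642), and in LPS/SeMC 0.23 (95% interval -0.01 to 0.47, adjusted p = 0.102 by edgeR). The share of all genes whose groups were separate in CPM is not given here. Separate groups alone are therefore not read as a result for any gene described. The IL12B gene overlaps the long non-coding RNA gene LOC121106734, with means of 2.70 CPM in LPS, 1.91 CPM in SeMC and 2.01 CPM in Control libraries.

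IL15 (chromosome 4, 29577233 to 29609377), a factor for T cells and natural killer cells that is presented on the IL15RA chain, was close to the limit of detection. It had 1, 5 and 8 counts in LPS libraries, against 13, 8 and 4 counts in SeMC and 12, 7 and 6 counts in Control libraries. The mean level was 0.349 ± 0.263 CPM in LPS, 0.724 ± 0.378 CPM in SeMC and 0.535 ± 0.233 CPM in Control libraries (SD, n = 3 each), and all groups overlapped. IL15 did not pass the filter on low counts in any of the 3 comparisons. Exact two-sided permutation tests of the CPM values gave p = 0.5 in LPS/CTR, p = 0.7 in SeMC/CTR and p = 0.3 in LPS/SeMC, and a difference was not detectable at this depth.

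LITAF varied little within a group and was higher in LPS cells. LITAF (chromosome 14, 925629 to 945258) encodes a membrane protein of late endosomes and lysosomes that was named as an LPS-induced factor for TNF transcription. RefSeq lists TNF-alpha among its synonyms in the chicken, although it is no member of the TNF ligand family. It had 570, 605 and 598 counts in LPS libraries, against 277, 263 and 277 counts in SeMC and 362, 394 and 455 counts in Control libraries. The levels were 44.1, 44.6 and 45.0 CPM in LPS, 23.5, 23.8 and 24.0 CPM in SeMC and 24.0, 25.8 and 26.5 CPM in Control libraries. The coefficient of variation was 1.05% in LPS, 1.02% in SeMC and 4.99% in Control libraries, against 75.2%, 52.2% and 43.6% for IL15. The summed counts were 1773, 817 and 1211 for LITAF and 14, 25 and 25 for IL15 in the same groups. Fewer counts give a larger coefficient by counting error alone, and the part of the genes themselves in this contrast was not tested. IL12B had coefficients of 1.75%, 3.67% and 4.31% with summed counts of 531, 398 and 445. The variance of LITAF counts over their mean was 0.58 in LPS, 0.24 in SeMC and 5.53 in Control libraries. The LPS and SeMC values are under what counting error alone gives on average. The small coefficients are therefore not read as a property of LITAF.

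LITAF was 1.77-fold higher in LPS than in Control cells (log2 fold change 0.82, SE 0.0753, 95% interval 0.66 to 0.98, adjusted p = 5.99e-07 by edgeR) and 1.90-fold higher in LPS than in SeMC cells (log2 fold change 0.93, adjusted p = 2.72e-07). SeMC and Control cells differed by -0.10 on the log2 scale (95% interval -0.28 to 0.09, adjusted p = 0.397). LITAF overlaps the long non-coding RNA gene LOC101751635, which was not called in LPS/CTR (log2 fold change 0.88, adjusted p = 0.161 by edgeR). LOC101751635 had 51, 61 and 12 counts in LPS libraries. Its means were 3.12 CPM in LPS, 1.22 CPM in SeMC and 1.72 CPM in Control libraries.

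The order of the group levels thus differed between genes. LPS was highest for every gene but IL15. For CSF1 the order was LPS, SeMC and Control, and neither pair of neighbours reached the fold change required. For IL10 it was LPS, Control and SeMC, and all neighbours were called different. For IL12B the order was LPS, SeMC and Control, and no neighbours were called different. For IL15 it was SeMC, Control and LPS, and IL15 was too low to be tested in any comparison. For IL16, LITAF and CSF3 it was LPS, Control and SeMC. SeMC and Control did not differ beyond the threshold for IL16 and LITAF, and CSF3 was too low to be tested between them. Levels are not compared between genes, because transcript lengths were not used here.

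Ratios of counts of a pair of genes within a library do not depend on the scaling of that library. The ratio of IL10 to IL12B counts was 0.561, 0.749 and 0.669 in LPS libraries, 0.153, 0.186 and 0.130 in SeMC libraries and 0.530, 0.578 and 0.506 in Control libraries. The SeMC values lay below all others, and LPS and Control overlapped. The mean ratio in SeMC was 0.291 times that in Control (exact permutation test, two-sided, p = 0.1, the smallest possible with n = 3 each), and that in LPS was 1.23 times that in Control (p = 0.2).

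The ratio of CSF3 to CSF1 counts averaged 0.0143 ± 0.00119 in LPS, 0.000535 ± 0.000557 in SeMC and 0.00143 ± 0.000886 in Control libraries (SD, n = 3 each). It was 10.02 times as high in LPS as in Control libraries and 26.8 times as high in LPS as in SeMC libraries (exact permutation test, two-sided, p = 0.1 in both, the smallest possible). Without SeMC replicate 1, which carried most of the SeMC mean, the ratio was 66.1 times as high in LPS as in SeMC libraries. It was 19.51 times as high without SeMC replicate 2 and 21.95 times as high without SeMC replicate 3. SeMC and Control overlapped (p = 0.2 in the same exact test), and the SeMC mean was 0.374 times the Control mean. This value was 0.152 without SeMC replicate 1, 0.5134 without SeMC replicate 2 and 0.4565 without SeMC replicate 3. No ratio could reach a p under 0.05 in this design.

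**Figure D3:**
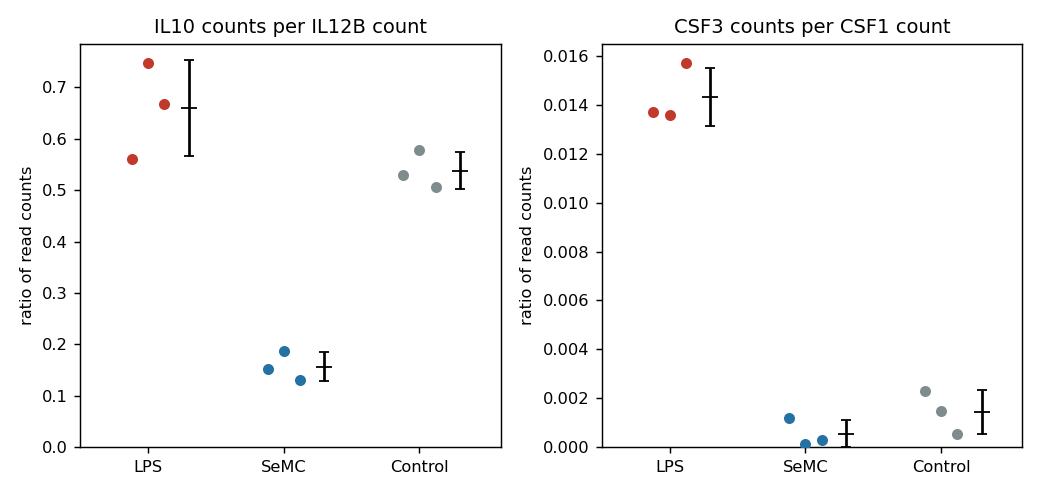
Ratio of counts in each library for IL10 over IL12B and for CSF3 over CSF1, on linear axes that start at 0, with LPS left of SeMC and Control. Points are libraries and black bars are the mean ± SD (n = 3 each). The IL10 to IL12B ratio was at most 0.186 in SeMC libraries and at least 0.506 in the others, and the CSF3 to CSF1 ratio was at least 0.0136 in LPS libraries and at most 0.00229 in the others.

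The receptors of these cytokines were followed as a list of their own. Of 14 receptor genes listed, 10 were in the table and tested in LPS/CTR, where none was called higher and 2 lower, with a median log2 fold change of -0.23. The shares over all genes tested were 6.13% higher and 5.92% lower. Their medians were -0.0015 in LPS/CTR, 0.0010 in SeMC/CTR and -0.0047 in LPS/SeMC, which stand against the medians of this and the following lists. CSF1R, the receptor of CSF1 and IL34 and itself one of the macrophage markers above, averaged 53.4 ± 3.47 CPM in LPS and 355 ± 13.6 CPM in Control libraries (SD, n = 3 each; log2 fold change -2.72, SE 0.0624, adjusted p = 7.48e-14 by edgeR). Its ligand CSF1 was higher in the same libraries. IL15RA averaged 5.02 ± 1.13 CPM in LPS and 7.95 ± 1.05 CPM in Control libraries (log2 fold change -0.65, adjusted p = 0.0162 by edgeR), and limma called 1 of the 10 receptors, not including IL15RA. CSF3R, the receptor of CSF3, was abundant in every group, with means of 1055 CPM in LPS, 1396 CPM in SeMC and 1338 CPM in Control libraries. The difference of LPS from Control cells was -0.33 on the log2 scale (adjusted p = 0.000107 by edgeR), which did not reach the fold change required.

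In SeMC/CTR, 9 receptors were tested and 1 was called in each direction, with a median of -0.16. Of all genes tested there, 8.5% were called higher and 5.58% lower. SDC1, a cell-surface proteoglycan that also binds IL34 in mammals, averaged 15.8 ± 2.05 CPM in SeMC and 8.68 ± 1.77 CPM in Control libraries (log2 fold change 0.87, adjusted p = 0.000570 by edgeR). IL15RA averaged 5.20 ± 0.433 CPM in SeMC and 7.95 ± 1.05 CPM in Control libraries (log2 fold change -0.61, adjusted p = 0.0117). In LPS/SeMC, 1 of 9 receptors was higher and 2 lower, with a median of -0.14, against 10.4% higher and 12.5% lower over all genes. IL10RA, the ligand-binding chain for IL10, averaged 4.86 ± 0.341 CPM in LPS and 2.96 ± 0.218 CPM in SeMC libraries (log2 fold change 0.73, adjusted p = 0.0125 by edgeR). CSF1R (-2.55) and SDC1 (-1.21) were lower in LPS cells. DESeq2 called 2 receptors in LPS/SeMC and limma 4, so these calls depend in part on the tool. Over all genes, DESeq2 called 3074 of 15506 and limma 3260 of 16136.

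Many of these receptors signal through Janus kinases and STAT proteins, which SOCS proteins restrain. Of 11 such genes followed here, 9 were in the table. In LPS/CTR, 4 of these 9 were called higher and none lower, with a median of 0.38. The shares over all genes tested were 6.13% higher and 5.92% lower. JAK3 averaged 8.46 ± 1.11 CPM in LPS and 3.62 ± 0.833 CPM in Control libraries (log2 fold change 1.24, adjusted p = 0.000172 by edgeR). SOCS3, the inhibitor that acts on gp130-type and CSF3 receptors, averaged 98.9 ± 2.29 CPM in LPS and 51.3 ± 5.93 CPM in Control libraries (log2 fold change 0.96, adjusted p = 1.15e-07). SOCS2 was higher too (log2 fold change 0.85, adjusted p = 5.50e-08), as was SOCS1, with 7.66 ± 1.08 CPM in LPS and 4.67 ± 0.532 CPM in Control libraries (log2 fold change 0.73, adjusted p = 0.00547).

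Of all genes tested in SeMC/CTR, 8.5% were called higher and 5.58% lower. None of the 9 JAK-STAT genes was called higher there and 2 were lower, with a median of -0.13. These were the inhibitors CISH, with 0.762 ± 0.281 CPM in SeMC and 1.76 ± 0.328 CPM in Control libraries (log2 fold change -1.20, adjusted p = 0.0262 by edgeR), and SOCS1, with 2.79 ± 0.510 CPM in SeMC and 4.67 ± 0.532 CPM in Control libraries (log2 fold change -0.74, adjusted p = 0.0229). DESeq2 called neither, so both calls depend on the tool. CISH had 7, 12 and 7 counts in SeMC and 28, 31 and 24 counts in Control libraries and passed the filter on low counts only through the Control libraries. Without CISH 1 of 8 was lower, and the median was -0.04. In LPS/SeMC, 5 of the 9 were called higher, with a median of 0.77, among them SOCS1 (log2 fold change 1.47, adjusted p = 7.23e-05), SOCS3 (1.10, adjusted p = 2.00e-08), JAK3 (1.01, adjusted p = 0.000903) and CISH (1.59, adjusted p = 0.0024). CISH passed the filter here only through the LPS libraries. Without CISH 4 of 8 were called higher, against 10.4% of all genes, and the median was 0.56.

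Transcription factors, NF-κB inhibitors and mRNA stability factors that act on cytokine genes were followed as a further list. Of 19 regulators listed, 16 were in the table, and 7 were higher and 2 lower in LPS/CTR, with a median of 0.37. The shares over all genes tested were 6.13% higher and 5.92% lower. NFKBIZ, which in mice is needed for the induction of IL6 and IL12B by LPS, averaged 134 ± 1.59 CPM in LPS and 35.9 ± 1.45 CPM in Control libraries (log2 fold change 1.91, adjusted p = 2.73e-12 by edgeR). NFKBIA, the inhibitor that NF-κB itself induces, averaged 303 ± 14.7 CPM in LPS and 87.5 ± 2.41 CPM in Control libraries (log2 fold change 1.80, adjusted p = 1.76e-12). MAF, an activator of IL10 in mice, was lower, with 2.70 ± 0.851 CPM in LPS and 7.78 ± 0.730 CPM in Control libraries (log2 fold change -1.51, adjusted p = 7.35e-05), and it overlaps WWOX. IRF8, a factor of macrophage development that also acts on IL12B, was lower as well, with 289 ± 5.51 CPM in LPS and 739 ± 50.3 CPM in Control libraries (log2 fold change -1.34, adjusted p = 6.24e-11).

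In SeMC/CTR, 1 of 16 regulators was called in each direction, with a median of 0.07. Of all genes tested there, 8.5% were higher and 5.58% lower, so the counts of this list were near these shares. NFKB2, the precursor of the p52 subunit, averaged 354 ± 22.5 CPM in SeMC and 138 ± 4.17 CPM in Control libraries (log2 fold change 1.36, adjusted p = 1.15e-09 by edgeR). IRF1 averaged 22.8 ± 3.16 CPM in SeMC and 37.0 ± 2.84 CPM in Control libraries (log2 fold change -0.70, adjusted p = 0.000123). In LPS/SeMC, 8 regulators were higher and 4 lower, with a median of 0.49, against 10.4% higher and 12.5% lower over all genes. NFKBIA (2.13), NFKBIZ (2.09), MAF (-1.58) and IRF8 (-1.37) had the largest log2 fold changes among those called. NFKBIZ and NFKB2, as well as SOCS1 and IL18 of the other lists, overlap other annotated genes.

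Other cytokines and partner subunits were followed as the last list. Of 16 listed, 8 were in the table and 6 were tested in LPS/CTR, where 2 were higher and 1 lower, with a median of 0.20. The shares over all genes tested were 6.13% higher and 5.92% lower. TGFB1, which restrains macrophage activation, averaged 422 ± 15.9 CPM in LPS and 251 ± 24.5 CPM in Control libraries (log2 fold change 0.76, adjusted p = 2.07e-07 by edgeR). IL18, an interferon-gamma-inducing cytokine, averaged 41.4 ± 2.12 CPM in LPS and 26.5 ± 1.73 CPM in Control libraries (log2 fold change 0.66, adjusted p = 1.30e-05). VEGFA, a growth factor for blood vessels, was lower, with 5.25 ± 1.41 CPM in LPS and 9.30 ± 1.94 CPM in Control libraries (log2 fold change -0.82, adjusted p = 0.0069).

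In SeMC/CTR, 0 of the 4 partner genes tested were called by edgeR, against 14.1% of all genes. Of these 4, 2 had an unadjusted p under 0.05 by edgeR, and 1 passed by FDR alone, where 39.3% of all genes did. DESeq2 and limma, which test more genes of the list, called 2 and 1. Over all genes, DESeq2 called 1894 of 16153 and limma 1950 of 16157. IL23A, the subunit that joins the IL12B product in interleukin-23, had 14, 8 and 18 counts in LPS, 26, 21 and 19 counts in SeMC and 23, 5 and 12 counts in Control libraries. It was not called in SeMC/CTR (log2 value 1.18, adjusted p = 0.0501 by edgeR), a test it entered only through the SeMC libraries. In LPS/SeMC, TGFB1 was higher (log2 fold change 0.69, adjusted p = 1.78e-07) and VEGFA lower (-0.80, adjusted p = 0.0032), with a median of -0.26 over the 4 genes tested and of 0.28 without IL23A.

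**Figure D4:**
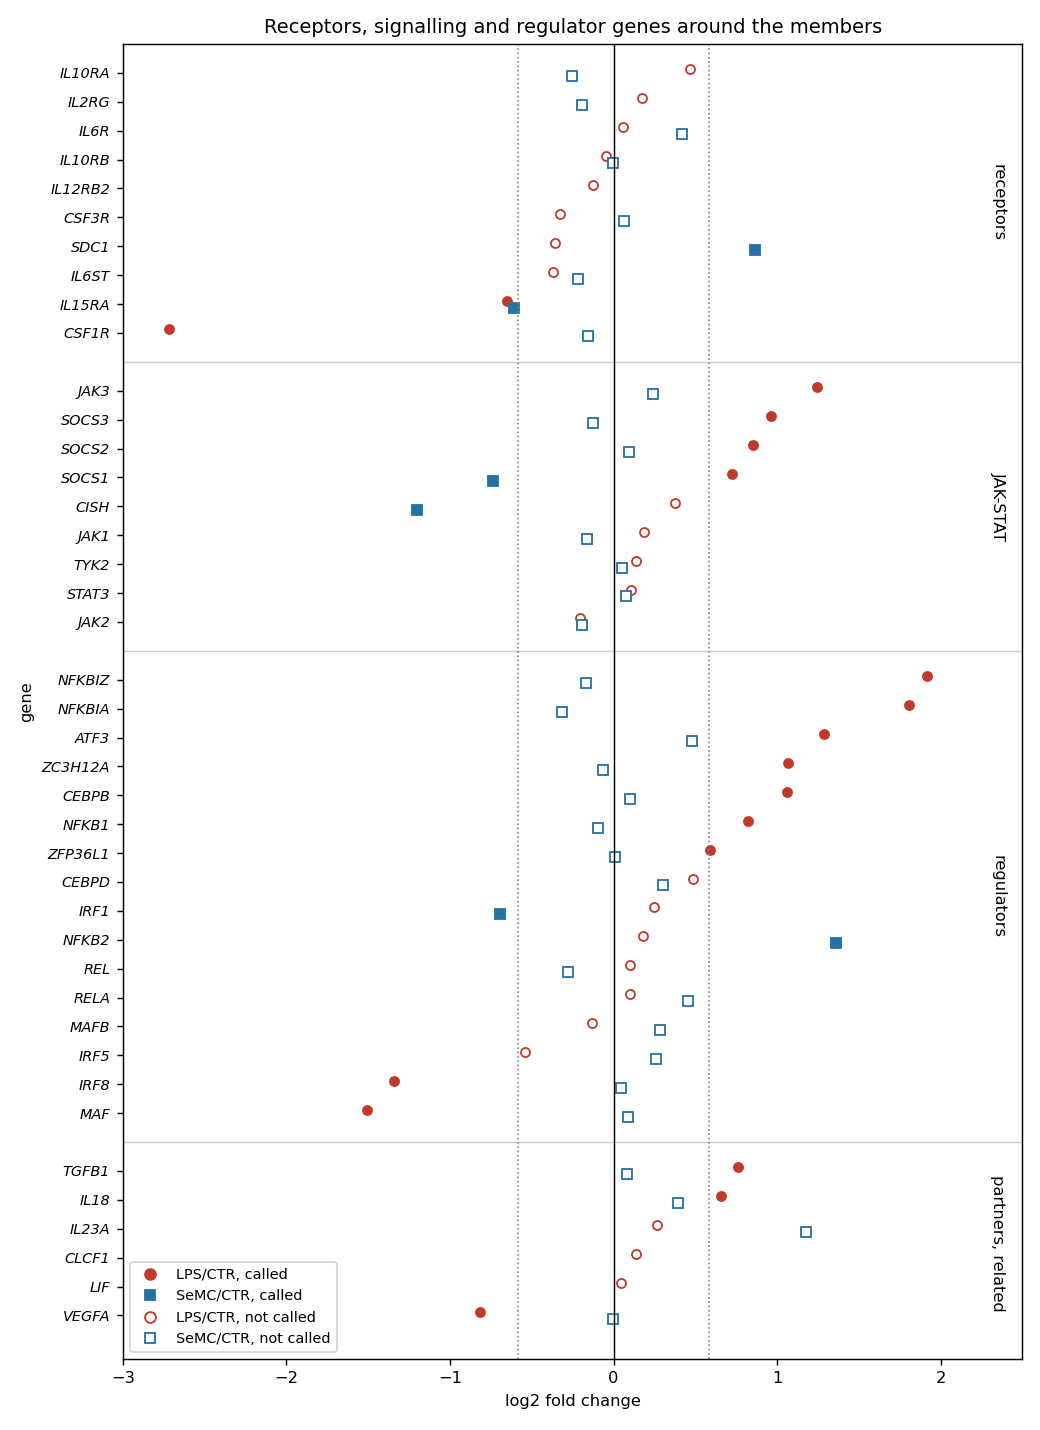
Log2 fold changes (horizontal axis) of the tested genes of the receptor, JAK-STAT, regulator and partner lists, with red circles for LPS/CTR and blue squares for SeMC/CTR; filled symbols were called and dotted lines mark the fold-change minimum. CSF1R lies farthest left in LPS/CTR (-2.72), NFKBIZ (1.91) and NFKBIA (1.80) farthest right, and NFKB2 farthest right in SeMC/CTR (1.36).

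The genes with the most similar pattern were sought for each called cytokine gene, by the root mean square difference of log2 CPM, relative to each gene's own Control mean, over the 9 libraries and among 11025 genes. This is a description, and the libraries are shared by all genes. For IL10 they were BEST4 (0.196), KLHL14 (0.239) and TESC (0.259), in which LPS minus Control was 0.595 to 0.823 and SeMC minus Control -1.22 to -0.999 on the log2 scale, against 0.742 and -1.27 for IL10. For CSF3 they were MRGPRH (0.362), G0S2 (0.445) and LECT2 (0.447), with LPS above Control by 3.11 to 3.56, against 3.44 for CSF3 on this scale. For LITAF they were GSL (0.0339), NUMB (0.046) and NFKB1 (0.0517), the last of which encodes the precursor of the NF-κB subunit p50. For CSF1 they were NCF4 (0.0599), MED27 (0.0684) and PLXNA1 (0.0725), and for IL16 they were BST1 (0.0754), PACSIN2 (0.0783) and FAM20B (0.0908). These differences include counting error, which is larger for genes with few counts such as CSF3, so their sizes are not compared between the cytokine genes.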

How the data were processed

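The authors filtered the reads, aligned them to the chicken genome GRCg7b with HISAT2, ran HTSeq and deposited raw gene counts of 16161 genes. Tool versions, annotation release and strand setting were not given in the sources used here, so how reads shared by overlapping genes were assigned is not known. Overlaps are given for whole gene spans, not for exons. Counting error limits genes with few counts, and depth was 10656332 to 17024392 counts per library. SeMC+LPS columns were left out, since their counts are means of the LPS and SeMC counts. 0 columns belonged to no sample.

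The counts were tested with edgeR 4.0.16 (R 4.3.3) on the 6 libraries of each of 3 comparisons, with TMM scaling, filterByExpr at a minimum count of 10 and the quasi-likelihood test, adjusted over all genes tested by Benjamini-Hochberg. The SE is the absolute log2 fold change over the square root of F, and 95% intervals use the t distribution. Alternatives were DESeq2 1.42.0, RLE factors, no filter, 9 libraries in one fit, a replicate block, limma 3.58.1 on quantile-normalized log2(count + 1), no fold-change minimum and each library left out. Counts without genes that passed the filter through 1 group, ratios without single SeMC libraries and the macrophage sum without LYZ were added after seeing the data. The scripts were tested on simulated data.

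All members in the table are named, and of each other list at most 4 called genes per comparison with the largest fold changes. CSF3R, IL23A, LOC415472, LOC101751635, LOC121106734 and the genes of the closing observations were named besides, after their values were seen. So were the cell type markers given by name. Similar genes are the 3 closest per member, at a pseudocount of 0.5 CPM, leaving out LOC symbols. 1 gene of the JAK-STAT list is not reported here and is left out of that list's counts and medians. The members and lists were chosen with earlier results of these data known. Gene coordinates and synonyms are RefSeq's, 1-based. Tables and figures were made in Python 3.11.15 with matplotlib 3.10.9, scipy 1.17.1, numpy 2.4.6 and pandas 2.3.3.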

Additional observations from a re-analysis of the deposited data

How the results depend on the processing

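For the cytokine genes tested, 12 alternatives per comparison refit the fold changes. Of these 204 values, 203 kept their direction and their call by FDR and fold change together, and none reversed. By FDR alone, IL12B in SeMC/CTR and LPS/SeMC and CSF1 in SeMC/CTR crossed 0.05 under some alternatives. The 1 call that changed was CSF1 in LPS/CTR, at 0.57 with limma on quantile-normalized values, where 4 of the cytokine genes were called. Without a fold-change minimum, 4491 genes were called in LPS/CTR, 5172 in SeMC/CTR and 7051 in LPS/SeMC, and 2 cytokine genes, IL10 and CSF1, in SeMC/CTR. With single libraries left out, 1438 to 1667, 1718 to 1919 and 2836 to 3075 genes were called in LPS/CTR, SeMC/CTR and LPS/SeMC, and 5, 1 and 4 cytokine genes each time. With the replicate number as a block, 1523, 1844 and 2971 genes and 5, 1 and 4 cytokine genes were called, so that the block changed no call of a cytokine gene. The sources do not say whether same-numbered libraries were paired. Correlations of their deviations from the group means were -0.048 to -0.003 in LPS/CTR, 0.006 to 0.049 in SeMC/CTR and -0.017 to 0.037 in LPS/SeMC. Libraries of unlike number gave -0.037 to 0.059, -0.054 to 0.021 and -0.065 to 0.039 in the same order. With 3 libraries per group, these values do not settle whether libraries were paired. Depth limits IL15 and CSF3 outside the LPS group. Levels per kilobase, and their comparison over transcript lengths, were not run, because no transcript lengths were used.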

Other observations

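Among the partner cytokines whose counts were too low to be tested by edgeR in SeMC/CTR, chosen after their values were seen, CLCF1, a ligand of the gp130 family, had 7, 13 and 12 counts in LPS libraries, 1, 1 and 1 count in SeMC libraries and 12, 9 and 14 counts in Control libraries. IL7, a growth factor of lymphocytes, had 2, 1 and 0 counts in LPS libraries, 0, 24 and 12 counts in SeMC libraries and 0, 2 and 1 counts in Control libraries, so its SeMC level rests on replicates 2 and 3. DESeq2, which gave an adjusted p to 16153 of 16157 genes in SeMC/CTR, called both there, and limma called CLCF1 only. Both genes were picked by these same counts, so the calls are no separate evidence.

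The SeMC+LPS columns entered no comparison. For the 7 cytokine genes, all 21 of their counts are the average of an LPS and a SeMC count, taken at equal replicate numbers and without the decimal.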
